A study of Rattus norvegicus with 10 samples.

Results

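Genes of bile acid transport, conjugation and sensing were examined in kidney cortex from PCK rats of both sexes. The set holds 7 of the 32545 genes in the deposited table, found by their symbols, and each symbol has 1 entry. They are *Slc51a*, *Slc51b* and *Slc10a2* for transport, *Baat* for conjugation, and *Nr1h4*, *Nr0b2* and *Gpbar1* for sensing. The members were selected on the known sex difference in FPKM of these libraries, including that of *Slc51b*, so their differences are given as a description, with every library's value and without a test.

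The PCK rat is a model of autosomal recessive polycystic kidney disease that carries a mutation in *Pkhd1* (strain PCK/CrljCrl-Pkhd1pck/Crl), and all 10 rats carried it. The groups were 5 males and 5 females, with 1 RNA-Seq library of snap-frozen cortex per rat, and no treatment is named for either. Their age is stated as 12 to 14 weeks in the design text and as 10 to 12 weeks in the methods of the study. By the study's account the animals were also those of its metabolomics and came as littermates out of 2 litters with different parents. The litter of each rat was not used here, so the fits treat the 10 rats as independent. No rats without the mutation were in the comparison, and hormone levels were not analysed here.

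Bile acids are made from cholesterol in the liver, joined to taurine or glycine, secreted into bile and taken back up in the ileum. The kidney filters those that reach the blood. Proximal tubule cells recover them with the same pair of steps as the ileum, uptake from the lumen by the sodium-dependent transporter ASBT (*Slc10a2*) and exit to the blood by the organic solute transporter, which is a complex of an alpha subunit (*Slc51a*) and a beta subunit (*Slc51b*). Inside the cell bile acids bind the nuclear receptor FXR (*Nr1h4*), which pairs with RXR and in liver and ileum raises transcription of both subunits and of the repressor SHP (*Nr0b2*). TGR5 (*Gpbar1*) is the receptor for bile acids at the cell surface.

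The libraries held 13912569 to 20285911 reads on genes. Mitochondrial genes took 26.8% of the reads of female 2 and 14.3% to 19.1% in the other 9 libraries, so values without female 2 are given for *Slc51b* and *Baat*, and for other genes where leaving it out turned the sign or carried the adjusted p across 0.05. Male 5 had the lowest sum of 8 proximal tubule markers (1579 FPKM, against 2454 to 3227 FPKM in the other males) and was the lowest male for 4 of the 6 members with enough reads to compare. The defining proximal tubule genes *Lrp2*, *Cubn* and *Slc34a1* were expressed in every library. In bulk tissue, fewer cells of a type and less RNA per cell cannot be told apart.

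Expression was given by the authors as FPKM, fragments scaled to gene length and library size, so levels of different genes can be set side by side. Differences are of females minus males on the scale of log2(FPKM + 0.1) and come from limma fitted to the 17631 genes whose mean reached 0.1 FPKM. Genes were called where the adjusted p (Benjamini-Hochberg) did not exceed 0.05 and the log2 difference was 1 or more in either direction. Of the 17631 genes, 1.32% were called, 0.618% as higher and 0.698% as lower in females, and 5.1% had no overlap of male and female FPKM ranges (2.5% higher and 2.6% lower in females). By the adjusted p alone, 2.4% passed, 1.26% as higher and 1.14% as lower. Of the 7 members, 6 passed the filter on low values. Counted by the same thresholds, 1 of the 6 lay past them on the lower side (*Slc51b*) and 1 on the higher side (*Baat*), and these were the 2 whose ranges did not overlap. Since the members were chosen on this contrast, this count is a description and no test of any member.

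*Slc51b*, the beta subunit that the transporter needs to reach the basolateral membrane, was the member with the lowest female values relative to males. It lies on chromosome 8 of Rnor_6.0 from 70930347 to 70932986, on the minus strand. Males 1 to 5 had 53.7, 64.7, 73.9, 72.1 and 127 FPKM. Females 1 to 5 had 8.29, 24.4, 18.0, 8.90 and 13.4 FPKM. Every female was below every male, and the gap ran from 24.4 FPKM in female 2 to 53.7 FPKM in male 1. The means were 78.3 ± 28.3 FPKM in males and 14.6 ± 6.75 FPKM in females (SD, n = 5 each), a 5.36-fold lower level in females. The log2 difference was −2.47 (standard error 0.31), the 90th in size of the 17631 genes. It was −2.69 without female 2 and −2.28 without male 5. Between 53 and 131 reads per female and 316 and 724 per male stood behind these values.

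*Slc51a*, the alpha subunit, did not share this pattern. It lies on chromosome 11 from 71533078 to 71547476, on the plus strand. Males 1 to 5 had 25.5, 43.6, 52.7, 22.4 and 21.3 FPKM, and females 1 to 5 had 32.3, 46.2, 59.4, 58.9 and 68.9 FPKM. The ranges overlapped, since males 2 and 3 were above female 1 and male 3 was also above female 2, and a female was above a male in 22 of the 25 possible pairs. The means were 33.1 ± 14.2 and 53.1 ± 14.2 FPKM (SD, n = 5 each), with a log2 difference of 0.73 (standard error 0.28).

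**Figure D1:**
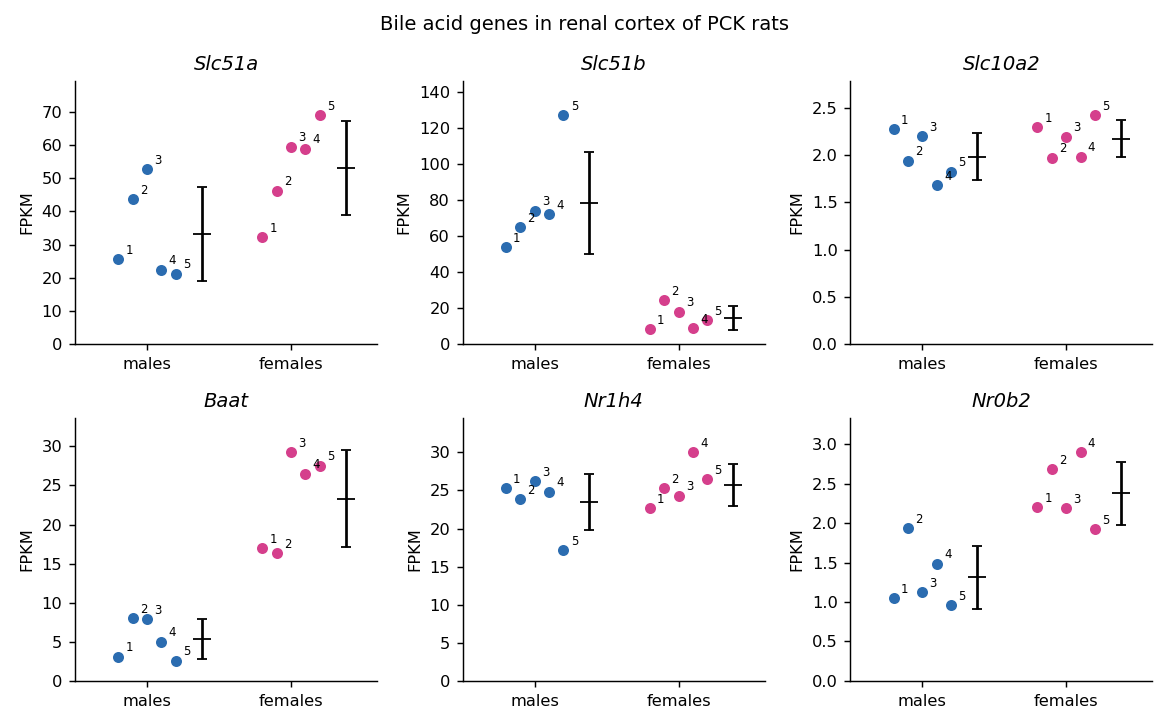
FPKM of 6 genes in each library, males in blue and females in pink, numbered by rat. The bar beside each group is the mean with its SD over 5 rats, and each vertical axis starts at 0. *Slc51b* and *Baat* separate the sexes in opposite directions, while *Slc10a2* and *Nr1h4* overlap.

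The subunits therefore stood in a different ratio in the sexes. The ratio of *Slc51a* to *Slc51b*, in FPKM, was 0.475, 0.673, 0.712, 0.311 and 0.168 in males 1 to 5 and 3.89, 1.89, 3.29, 6.61 and 5.16 in females 1 to 5. The beta subunit had the higher value in every male and the lower value in every female. The mean ratio was 0.468 ± 0.233 in males and 4.17 ± 1.80 in females (SD, n = 5 each). Which subunit is the higher one rests on the gene lengths used for FPKM, which are 1603 bases for *Slc51a* and only 381 bases for *Slc51b*, within a span of 2640 bases. In reads, *Slc51a* exceeded *Slc51b* in 9 of the 10 libraries, all but male 5. The direction between the sexes does not depend on these lengths, and the ratio in reads was 0.706 to 3.0 in males and 7.95 to 27.8 in females.

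**Figure D2:**
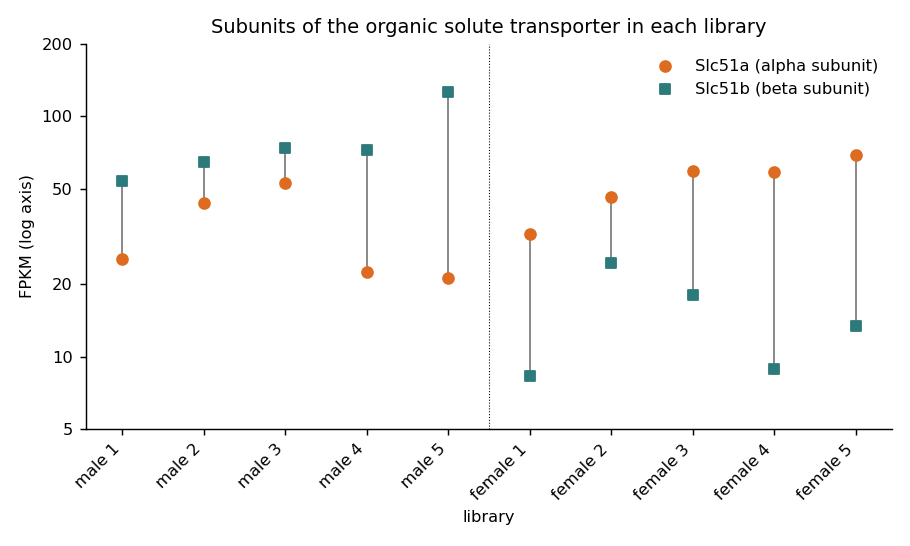
FPKM of *Slc51a* (circles) and *Slc51b* (squares) in each of the 10 libraries on a log axis, with a line joining the values of a rat. Squares lie above circles in the 5 males and below them in the 5 females.

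The 250 bases before the start of both subunit genes, and of *Baat*, are shown because these 3 genes carry the opposed differences. They were read from RefSeq on the build GRCr8, where the gene start may differ from that of the deposited annotation, and a promoter entry was matched for 6 of the 7 members. An inverted repeat of the half-site AGGTCA with 1 spacer base, which FXR with RXR is known to bind, was searched on both strands. An exact match occurs in 0.0269% of 33469 windows of this length, and 10.3% have a match with at most 3 mismatches. The closest match in each window is in capitals. *Slc51b* is at chr8:74835110-74835359 on the minus strand, *Slc51a* at chr11:81803891-81804140 on the plus strand and *Baat* at chr5:68656138-68656387 on the minus strand.
Slc51b: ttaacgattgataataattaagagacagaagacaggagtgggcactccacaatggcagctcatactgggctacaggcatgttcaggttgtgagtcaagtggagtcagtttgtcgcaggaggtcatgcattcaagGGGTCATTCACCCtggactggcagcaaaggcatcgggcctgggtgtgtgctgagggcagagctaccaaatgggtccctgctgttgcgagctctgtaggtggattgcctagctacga
Slc51a: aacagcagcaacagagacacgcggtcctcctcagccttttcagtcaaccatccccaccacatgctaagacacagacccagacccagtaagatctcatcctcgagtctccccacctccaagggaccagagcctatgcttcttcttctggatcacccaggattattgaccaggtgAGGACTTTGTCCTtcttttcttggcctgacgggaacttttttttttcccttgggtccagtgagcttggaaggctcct
Baat: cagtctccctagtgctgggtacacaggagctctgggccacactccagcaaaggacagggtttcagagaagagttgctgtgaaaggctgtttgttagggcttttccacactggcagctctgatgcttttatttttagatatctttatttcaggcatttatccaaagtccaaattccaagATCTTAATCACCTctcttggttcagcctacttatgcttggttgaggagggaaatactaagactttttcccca

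The match of *Slc51b* begins 116 bases before the start and has 3 mismatches, as has that of *Slc51a*, which begins 77 bases before it, while the closest match of *Baat* has 4 mismatches. The half-site AGGTCA was found in the window of *Slc51b*, from 132 to 127 bases before the start, and in none of the other 5 windows, and 14.1% of all windows hold it. An inverted repeat of AGAACA with 3 spacer bases, the palindrome bound by the androgen receptor, matched none of the 6 windows with 3 mismatches or fewer, against 12.4% of all windows. An inverted repeat of AGGTCA with 3 spacer bases, bound by estrogen receptors and sharing its half-sites with the first motif, had 3 mismatches in *Slc51b*, *Baat* and *Nr0b2*, and 10.8% of all windows come as close. These matches describe letters in a short window and were not tested for binding.

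The genes beside *Slc51b* were read to see whether its difference stood alone on the chromosome. *Rasl12*, which encodes a small GTPase related to Ras, lies on the opposite strand from 70915953 to 70930179, so the 3′ ends of the pair face each other 168 bases apart. Its range was 5.38 to 8.70 FPKM in males against 1.92 to 2.78 FPKM for females, and these did not meet. It fell from 6.75 ± 1.33 to 2.37 ± 0.326 FPKM (SD, n = 5 each), a log2 difference of −1.46 (standard error 0.15, limma adjusted p = 0.000393). Whether the counting used strand is not given in the sources used here, and the part that reads running past either 3′ end may have in these values was not tested. The genes did not keep a fixed ratio, since *Slc51b* was at 8.88 to 14.6 times the FPKM of *Rasl12* in males and at 3.2 to 12.7 times in females. On the other side, 19217 bases away, *Mtfmt*, which encodes the mitochondrial methionyl-tRNA formyltransferase, was at 14.1 ± 1.13 and 13.8 ± 1.43 FPKM (log2 difference −0.03, limma adjusted p = 0.933).

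**Figure D3:**
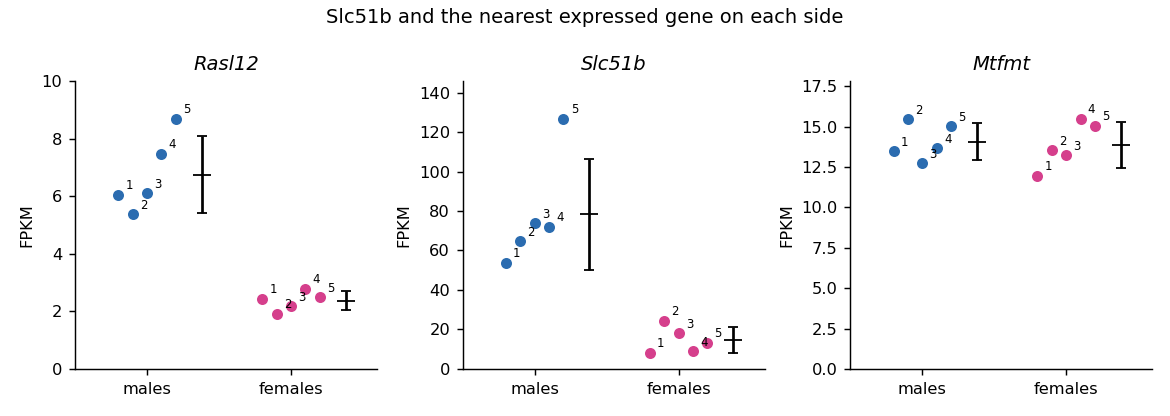
FPKM in each library of *Slc51b* (middle) and of the nearest gene with a mean of at least 0.1 FPKM on its left (*Rasl12*) and on its right (*Mtfmt*), with mean and SD over 5 rats. *Rasl12* and *Slc51b* separate the sexes, while *Mtfmt* overlaps.

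*Slc10a2*, the transporter that takes bile acids up from the lumen, was expressed at a low level. It lies on chromosome 16 from 90324361 to 90345865. Values ran from 1.68 to 2.27 FPKM in males, against 1.97 to 2.42 FPKM in females, from 56 to 79 reads per library, and the ranges overlapped over most of their length. The means were 1.98 ± 0.250 and 2.17 ± 0.195 FPKM (SD, n = 5 each), with a log2 difference of 0.13 (standard error 0.13). The coefficient of variation over rats was 12.6% in males and 8.97% in females, and counting error alone gives 12.2% and 11.8% at these read numbers, so the spread between rats could not be measured apart from it.

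*Baat* encodes the enzyme that joins bile acids to taurine or glycine. It lies on chromosome 5 from 64768401 to 64777368, on the minus strand. Males 1 to 5 had 3.08, 8.03, 7.86, 5.02 and 2.59 FPKM, and females 1 to 5 had 16.9, 16.3, 29.3, 26.5 and 27.5 FPKM. Every female was above every male, and the nearest values were 8.03 FPKM in male 2 and 16.3 FPKM in female 2. The means were 5.32 ± 2.57 and 23.3 ± 6.18 FPKM (SD, n = 5 each), a 4.38-fold higher level in females, with a log2 difference of 2.21 (standard error 0.33). The difference was 2.33 without female 2 and 1.99 without male 5. It was the 127th in size of the 17631 genes.

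*Baat* is best known as a hepatocyte gene, and 6 hepatocyte markers were read beside it. Their summed level was 4.54 to 21.3 FPKM in males (median 4.97), against 8.03 to 30.4 FPKM in females (median 16.1), and the median log2 difference of the 5 that passed the filter was 1.18. Of these 5, 1 was called, *Ttr*, which is listed at 0 in all males and had 0.0850 to 1.08 FPKM in females. That call rests on 1 to 12 reads per female, and *Ttr* passed the filter only through the females. Most of the sum was *Fgb*, a fibrinogen gene at 6.64 ± 4.36 and 15.3 ± 8.24 FPKM (SD, n = 5 each) with overlapping ranges (log2 difference 1.18, limma adjusted p = 0.233). *Cps1*, the first enzyme of the urea cycle, had medians of 0.148 and 1.18 FPKM (1.53, limma adjusted p = 0.455). The other 2 tested markers had lower means in females, *Serpina1* at 0.825 and 0.325 FPKM (−0.86, limma adjusted p = 0.477) and *Apoa1* at 0.188 and 0.166 FPKM (−0.44, limma adjusted p = 0.745). *Alb*, the defining hepatocyte transcript, had at most 2 reads in any library. *Cyp7a1*, which catalyses the first step of bile acid synthesis in hepatocytes, is listed at 0 in all 10 libraries. The markers of the last segment of the proximal tubule (*Slc7a13*, *Slc5a1*, *Slc5a8* and *Aqp7*) summed to 240.3 to 698 FPKM for males, against 469 to 1149 FPKM for females, and 3 of the 4 had higher means in females. The median log2 difference was 0.73. *Slc5a1* was at 10.5 to 15.1 and 18.3 to 31.9 FPKM without overlap (0.73, limma adjusted p = 0.0353), under the fold threshold, and *Slc7a13*, the largest part of the sum, was at 120.1 to 576 and 366 to 988 FPKM (1.08, limma adjusted p = 0.312). Set against the sum of 8 general proximal tubule markers in the same library, *Baat* did not overlap between the sexes, at 1.23 to 2.83 FPKM for every 1000 FPKM of markers in males and 7.72 to 10.4 in females. On the same scale *Slc51b* was at 21.4 to 80.3 in males and 2.59 to 13.7 in females. Set instead against the 4 markers of the last segment, *Baat* overlapped, at 4.13 to 32.7 FPKM for every 1000 FPKM of markers in males and 18.4 to 60.9 in females, and its log2 difference was 1.41. On that scale *Slc51b* remained apart (103 to 308 and 8.12 to 52.1, log2 difference −3.31), while *Slc51a* was at −0.10 and *Nr0b2* at 0.06. Dividing by these markers moves every gene by nearly the same amount, −0.84 to −0.78 for the 6 members.

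The nearest expressed genes beside *Baat* differed from it. *Mrpl50*, a gene for a mitochondrial ribosomal protein 6802 bases away, was at 21.0 ± 2.22 FPKM in males, against 22.9 ± 4.23 FPKM in females (log2 difference 0.10, limma adjusted p = 0.771). *Col15a1*, a collagen gene 225756 bases away on the other side, fell in females, with a log2 difference of −1.31 (standard error 0.24, limma adjusted p = 0.0166). Fibroblast markers (*Pdgfrb*, *Col1a1*, *Col3a1* and *Dcn*) summed to 229.9 to 313 FPKM in males, against 68.5 to 224 FPKM in females, and 1 of the 4, *Col3a1*, was called lower. Markers of intercalated cells, which lie in the collecting duct, had positive differences in 5 of 5 (median 0.58) and summed to 134 to 205 and 215 to 337 FPKM without overlap, and those of principal cells had positive differences in 5 of 5 (median 0.42) with overlapping sums. None of these 10 was called. Under the fold threshold, *Atp6v0d2* of intercalated cells (0.57, limma adjusted p = 0.0351) and *Avpr2* of principal cells (0.44, limma adjusted p = 0.0469) passed the adjusted p without overlap. *Atp6v1g3* of intercalated cells also did not overlap (0.73, limma adjusted p = 0.0666). Among the general proximal tubule markers, *Cubn* passed the adjusted p under the fold threshold with overlapping ranges (0.72, limma adjusted p = 0.0467). Macrophage markers had negative differences in 4 of 4 (median −0.52), and markers of the thick ascending limb and of podocytes had positive ones in 4 of 4 each (medians 0.25 and 0.26), with none called and overlapping sums, and the part of cell composition in the members' values was not tested.

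*Nr1h4*, which encodes FXR, was well expressed in both sexes. It lies on chromosome 7 from 30003429 to 30162056. Values ran from 17.1 to 26.2 FPKM in males, against 22.7 to 30.0 FPKM in females, and without male 5, the lowest library, the male range began at 23.8 FPKM. The means were 23.5 ± 3.64 and 25.8 ± 2.76 FPKM (SD, n = 5 each), with a log2 difference of 0.14 (standard error 0.12) that was 0.035 without male 5, and the ranges overlapped. A small RNA gene annotated as *U7* lies within it on the other strand.

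*Nr0b2*, which encodes the FXR target SHP, a repressor without a DNA-binding domain, was low in both sexes. It lies on chromosome 5 from 151776004 to 151779319. Males 1 to 5 had 1.05, 1.94, 1.12, 1.49 and 0.961 FPKM, and females 1 to 5 had 2.20, 2.68, 2.19, 2.90 and 1.92 FPKM. A female was above a male in 24 of the 25 pairs, the exception being female 5 and male 2. The means were 1.31 ± 0.403 and 2.38 ± 0.401 FPKM (SD, n = 5 each), with a log2 difference of 0.84 (standard error 0.20). Only 16 to 40 reads per male and 34 to 57 per female stood behind these values. Of the genes named above as raised by FXR, *Slc51b* was thus lower in females while *Slc51a* and *Nr0b2* had higher means.

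*Gpbar1*, which encodes TGR5 (chromosome 9, 81559605 to 81560594), had a single read, in male 4, and no read in any of the other 9 libraries. Taking 3 reads as the limit that a count of 0 allows, the limit in the 9 libraries without a read was 0.163 to 0.215 FPKM, and no fold is given. Such limits cover counting error only.

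By mean FPKM, the order of the levels was not the same in the sexes. In males it ran *Slc51b*, *Slc51a*, *Nr1h4*, *Baat*, *Slc10a2*, *Nr0b2* and *Gpbar1*. The neighbours *Slc51a* and *Nr1h4* overlapped, as did *Slc10a2* and *Nr0b2*. In females it ran *Slc51a*, *Nr1h4*, *Baat*, *Slc51b*, *Nr0b2*, *Slc10a2* and *Gpbar1*. There *Nr1h4*, *Baat* and *Slc51b* overlapped each with the next, as did *Nr0b2* and *Slc10a2*. The first place of *Slc51b* in males rests on its length of 381 bases, and in reads *Slc51a* was above it in 4 of the 5 males. Averaged over all libraries, the percentile of the mean among the tested genes was 89.9 for *Slc51b*, 89.1 for *Slc51a*, 81.3 for *Nr1h4*, 70.3 for *Baat*, 32.7 for *Slc10a2* and 31.2 for *Nr0b2*.

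The genes whose values over the 10 libraries lay closest to those of each transporter gene were found by the root mean square difference of log2 values, after each gene's own mean was taken off. The comparison ran over 13362 genes whose mean reached 1 FPKM, and is a description, since all genes of a library share its depth and tissue composition. The 3 closest to *Slc51b* were *Mrap* (0.44), *Melk* (0.47) and *Exnef* (0.49), against a median of 1.36 over all genes. *Mrap*, which encodes an accessory protein of melanocortin receptors, was at 11.7 ± 3.69 FPKM in males, against 2.41 ± 0.664 FPKM in females. *Melk*, a mitotic kinase gene, was at 5.45 ± 1.52 and 0.733 ± 0.159 FPKM. Closest to *Slc51a* were *Zmat4* (0.17), *Gimd1* (0.25) and *Slc13a1* (0.28), the last a sulfate transporter of the proximal tubule at 215 ± 53.4 and 296 ± 43.8 FPKM, against a median of 0.62. Closest to *Slc10a2* were *Psen2* (0.08), *Dhx34* (0.09) and *Spint1* (0.09), against a median of 0.26.

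The rest of the bile acid pathway was read from 67 textbook genes, of which 57 were matched by symbol and 43 passed the filter. Of these 43, 1 was called higher and 1 lower in females, against 1.32% of all genes, and the median log2 difference was −0.08, against −0.01 over all genes tested. *Acox2*, the peroxisomal oxidase that begins the shortening of the bile acid side chain, rose from 2.65, 3.13, 2.50, 3.95 and 4.04 FPKM in males 1 to 5 to 10.2, 6.0, 6.27, 12.5 and 15.2 FPKM in females 1 to 5. The ranges did not overlap, and its log2 difference was 1.53 (standard error 0.26, limma adjusted p = 0.0111). *Slco1a1*, an organic anion transporter that also carries bile acids, was at 23.6 to 43.9 FPKM in males, while no female exceeded 0.189 FPKM (0 to 6 reads per female). This was already known when the lists were written, and its log2 difference of −7.70 (limma adjusted p = 5.85e-08) moved between −9.30 and −4.99 with the pseudocount and other settings.

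Of the 12 tested genes of bile acid synthesis, 1, *Acox2*, was called. The peroxisomal racemase gene *Amacr* was at 100.2 ± 13.7 and 171 ± 58.7 FPKM (log2 difference 0.71, limma adjusted p = 0.128), and without female 2 the difference was 0.87 (limma adjusted p = 0.0315). *Hsd17b4*, the next peroxisomal enzyme, was at 89.4 ± 11.0 and 69.3 ± 9.47 FPKM (−0.37, limma adjusted p = 0.137). *Slc27a2*, which activates fatty acids and bile acid precursors with coenzyme A, was at 136 ± 28.3 and 146 ± 27.9 FPKM (0.10, limma adjusted p = 0.820).

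None of the 5 tested genes of bile acid activation and taurine supply was called. *Csad*, which makes taurine, was at 38.3 ± 6.19 and 30.5 ± 6.61 FPKM (log2 difference −0.34, limma adjusted p = 0.343), and *Cdo1*, which acts before it, was at 39.8 ± 17.4 and 23.3 ± 6.70 FPKM (−0.71, limma adjusted p = 0.284). The taurine transporter *Slc6a6* was at 40.2 ± 22.7 and 35.6 ± 10.6 FPKM (−0.08, limma adjusted p = 0.936), and the sign turned without male 4 or without female 2. The list's only positive difference was that of *Ado*, the symbol of a second thiol dioxygenase, at 4.54 and 5.54 FPKM (0.30, limma adjusted p = 0.402). The deposited annotation types this entry as a pseudogene.

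Of the 10 tested transporters outside the set, 1, *Slco1a1*, was called. *Slco1a6* was at 92.7 ± 54.3 and 87.5 ± 41.3 FPKM (log2 difference 0.00, limma adjusted p = 0.998), and its paralogs could have shared its reads. *Abcc4*, an exporter of the apical membrane, was at 24.0 ± 5.56 and 21.3 ± 5.07 FPKM (−0.17, limma adjusted p = 0.756). Neither of the 2 tested genes of sulfation and glucuronidation was called. *Ugt2b35* was at 70.2 ± 21.9 and 42.2 ± 13.0 FPKM (−0.74, limma adjusted p = 0.164). *Papss2*, which makes the sulfate donor, was at 14.0 ± 1.61 and 10.8 ± 0.845 FPKM without overlap (−0.37, limma adjusted p = 0.0774), and *Ugt2b17* had at most 2 reads in any library.

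Of the 12 nuclear receptors and other sensors tested, none was called under both thresholds. *Vdr*, the vitamin D receptor, which also binds lithocholic acid, had a limma adjusted p of 0.0313 with a log2 difference of 0.89 (standard error 0.19), under the fold threshold. It was at 29.0 to 53.6 FPKM in males, against 54.0 to 98.6 FPKM in females, without overlap. The limma adjusted p was above 0.05 in 7 of the 10 fits that left out 1 library (0.0628 to 0.0754). It was at or below 0.05 without male 3, female 1 or female 2, and past both thresholds only without male 3 (1.0, limma adjusted p = 0.0219). *Hnf4a* was at 143 ± 13.2 and 141 ± 31.4 FPKM (−0.05, limma adjusted p = 0.926), with the sign turned without female 2, and *Nr1h2* was at 52.6 ± 3.29 and 56.0 ± 4.16 FPKM (0.09, limma adjusted p = 0.633). In the FGF arm of bile acid feedback, *Fgfr4* was at 16.6 ± 1.21 and 14.9 ± 2.83 FPKM (−0.17, limma adjusted p = 0.547). *Fgf21* had 1 to 7 reads per library (−0.47, limma adjusted p = 0.577), and *Fabp1* had at most 1 read. *Klb*, which encodes the co-receptor of FGFR4, is listed at 0 in all libraries.

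**Figure D4:**
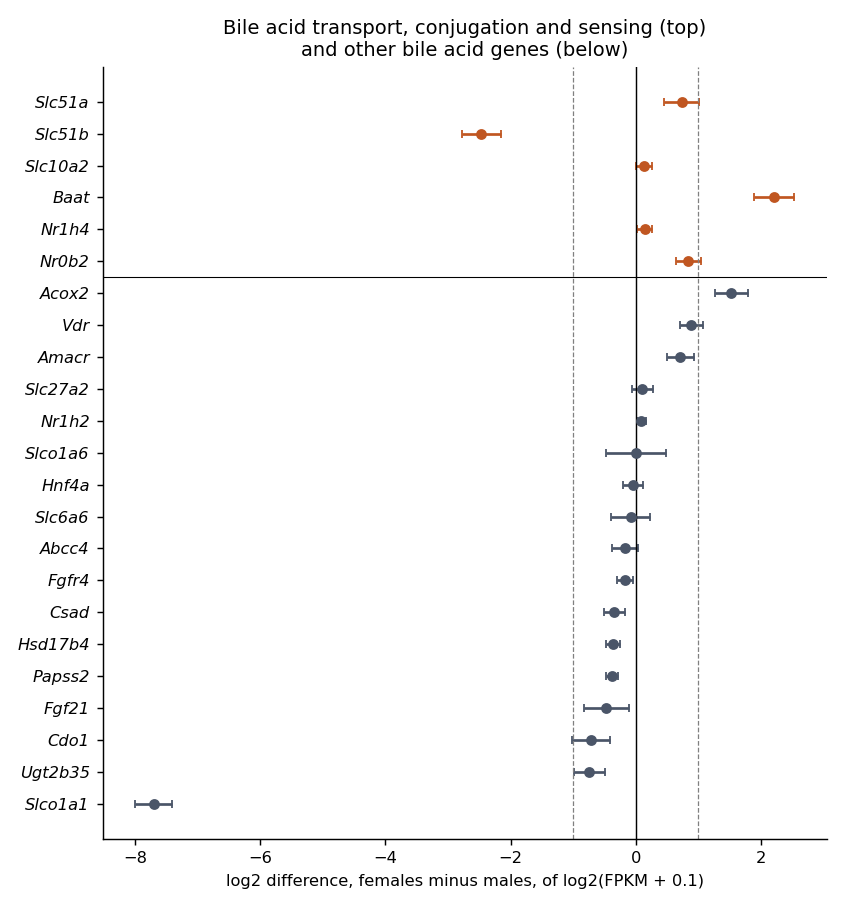
Log2 difference of females minus males with its standard error for the 6 members that passed the filter (orange, top) and the named genes of the rest of the pathway (grey, ordered by difference). Dashed lines mark a difference of 1 in either direction. *Slc51b* and *Slco1a1* lie beyond the line on the lower side, and *Baat* and *Acox2* on the higher side.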

How the data were processed

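Libraries of renal cortex were grouped by the sex in their titles, 5 males and 5 females. Per the labels, the submitters' processing notes name fastp, HISAT2 2.0.5, StringTie 1.3.3b and featureCounts 1.5.0-p3, and the methods give the build as Rnor_6.0. The values are FPKM as deposited by the authors. Nothing in the sources used here says that replicates were pooled or that the counting used strand, and the authors' own test on counts was not used.

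Each FPKM was multiplied by the deposited gene length and divided by the smallest such product in its library, taken as 1 read, which gave whole reads (within 0.01) for 100% of the values above 0. These reads gave the depth, 13912569 to 20285911 per library. Sex was tested with limma 3.58.1 (lmFit, eBayes with trend) in R 4.3.3 on log2(FPKM + 0.1) over genes whose mean reached 0.1 FPKM, with Benjamini-Hochberg adjustment. The pseudocount understates the change of low genes. Tables were handled in Python 3.11.15 with pandas 2.3.3 and numpy 2.4.6.

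The members and lists were chosen with earlier results of these data known. Named are the members, every called gene and the 3 most expressed genes of each pathway list, the 3 genes closest in pattern to each of *Slc51b*, *Slc51a* and *Slc10a2*, and the nearest expressed genes beside *Slc51b* and *Baat*. Of the 67 pathway genes, 10 were not matched by symbol and were not analysed here. *Cyp7a1*, *Klb* and *Ado* were named outside this rule after their values were seen. Marker genes are named only where a result turns on them, and marker lists are described without a test. Genes called in the marker lists other than fibroblast, hepatocyte and the last proximal tubule segment were 0 of 8 for the proximal tubule, 0 of 4 for the thick ascending limb, 0 of 2 for the distal convoluted tubule, 0 of 5 for principal cells, 0 of 5 for intercalated cells, 0 of 4 for podocytes, 0 of 4 for endothelium, 0 of 4 for macrophages, 0 of 2 for adrenal cortex and 0 of 2 for adipocytes. P-values set the difference between the sexes against the spread between these rats, treated as independent.

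Alternatives were a pseudocount of 1 or 0.01, limma-voom applied to the recovered reads, median-ratio scaling, quantile normalization, calling by adjusted p without the fold threshold, omitting the filter or raising it to 1 FPKM, the replicate number as a block, and leaving out each library. Scaling by proximal tubule markers, general or of the last segment, was added after the data were seen. The procedure was run on simulated counts with the same spread set for every gene, calling by adjusted p without the fold threshold. It recovered 48 of 97 genes changed 2-fold and 84 of 94 changed 4-fold, and 2 of 17416 unchanged genes were called. The simulated spread was not matched to that of single genes here.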

Additional observations from a re-analysis of the deposited data

Results flagged for a closer look

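In groups of 5 libraries, a library was singled out when its gap to the nearest other one, divided by the range, was above 0.71. Chance singles out about 1 in 20 groups of normally distributed values. Here 7 of the 54 groups looked at had a library apart, which was male 4, male 5 or female 3. A group with reads in 1 library only is always singled out, so the count cannot be set against that rate. Male 5 was the highest male for *Slc51b* at 127 FPKM, with the others at 53.7 to 73.9 FPKM, and the lowest male for *Nr1h4* at 17.1 FPKM, with the others at 23.8 to 26.2 FPKM. This rat also had the lowest summed proximal tubule markers of all libraries (1579 FPKM), and their part in these values was not tested. Male 4 was the highest male for *Slc6a6*, at 79.6 FPKM against 26.3 to 39.5 FPKM in the other males, and for *Fgf21*, at 0.542 FPKM from 7 reads. The remaining values rest on 1 read each, which is *Gpbar1* at 0.0491 FPKM in male 4, and *Fabp1* at 0.0999 FPKM in male 4 and at 0.122 FPKM in female 3.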

How the results depend on the processing

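With each library left out, the log2 difference ranged from −2.69 to −2.28 for *Slc51b*, 1.99 to 2.39 for *Baat*, 0.60 to 0.93 for *Slc51a* and 0.75 to 0.98 for *Nr0b2*, and a pseudocount of 1 gave 0.56 for *Nr0b2*. Leaving out libraries gave 0.076 to 0.18 for *Slc10a2* and 0.035 to 0.19 for *Nr1h4*. The filters and the replicate block cannot move these differences, and median-ratio factors were equal in all libraries (1.01), so that scaling could hardly move them. Limma-voom on the recovered reads gave −2.56 for *Slc51b*, 2.14 for *Baat*, 0.66 for *Slc51a* and 0.78 for *Nr0b2*. Scaling to markers of the last proximal tubule segment, added after the data were seen, moved all 6 members by a nearly common shift of −0.84 to −0.78, to 1.41 for *Baat*, −3.31 for *Slc51b*, 0.06 for *Nr0b2*, −0.10 for *Slc51a*, −0.70 for *Slc10a2* and −0.69 for *Nr1h4*. Of all genes tested, 109 were called higher and 123 lower in females. With the adjusted p alone these became 223 and 201, and the pathway genes called higher outside the set became 2 (*Acox2* and *Vdr*), since the fold threshold is dropped. With limma-voom they were 105 and 177, and with quantile normalization 121 and 106, so that the balance turned. With a pseudocount of 1 they became 65 and 72, and 133 of these 137 were among the 232 called before. Leaving out 1 library gave 82 to 114 higher and 89 to 148 lower, 1 to 2 pathway genes higher and 1 lower, and mean ratios of *Slc51a* to *Slc51b* of 0.407 to 0.543 in males and 3.56 to 4.74 in females.
Small differences changed sign. *Slco1a6* was at −0.065 with quantile normalization and −0.063 with limma-voom. With each library left out, it ranged from −0.31 to 0.26, *Slc6a6* from −0.23 to 0.20 and *Hnf4a* from −0.13 to 0.092, and the cause was not tested. *Abcc4* ranged from −0.33 to −0.027 and *Slc27a2* from 0.0077 to 0.18, so that both kept their sign. Over all settings the limma adjusted p was 0.0288 to 0.165 for *Papss2* and 0.0477 to 0.273 for *Hsd17b4*. The replicate numbers of the titles are not said to pair the rats. Same-numbered libraries' deviations correlated at −0.10 to 0.07, and 1 male of 5, male 3, correlated best with the female of its own number. Such correlations cannot show whether the numbers pair rats, since how closely a true pair would correlate is not known. With the replicate number as a block, 89 genes were called higher and 87 lower, and the limma adjusted p of *Vdr* was 0.0508. Depth limits *Gpbar1*, *Nr0b2* and *Slc10a2* most. All values rest on 5 rats a sex.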
